A study of Mus musculus with 7 samples.

Results

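The prostanoid receptors are the cell surface receptors through which prostaglandins and thromboxane act. Their genes are Ptgfr, Ptger1, Ptger2, Ptger3, Ptger4, Ptgir, Ptgdr and Tbxa2r, 8 in all. They were chosen by family name, with expression values of these arrays already known, and each gene was read from the row with the highest mean over all 7 arrays. Of the 8 genes, 7 had a row that names 1 gene alone, out of 18820 genes measured in this way, and Ptger1 was not analysed here. The levels and differences of the receptors are therefore given as a description and not as a test.

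The cells were 3T3-L1, an established mouse line of fibroblast-like cells that can be turned into fat cells. Differentiation was induced for 2 days with isobutylmethylxanthine, dexamethasone and human insulin, was continued in human insulin, and ended on day 7. One group of 4 arrays came from cells kept in DMSO, the solvent, and the other of 3 arrays from cells kept in 1 µM of an inhibitor of stearoyl-CoA desaturase (SCD), which makes monounsaturated fatty acids. Total RNA was measured on Affymetrix arrays, and the values are log2 expression levels from RMA, which corrects the background, evens out the arrays and merges the probes of a transcript into 1 row. Both groups received the same hormone mixture, and the labels do not name the compound. Nothing in the labels says that replicates were separate cultures, so errors and p-values here measure differences between samples that could be technical.

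Prostanoids are short-lived signals that cells make from arachidonic acid and release to act on themselves and their neighbours. The receptor for prostaglandin F2α, FP, acts mainly through Gq and phospholipase C. The receptors EP2, EP4, IP and DP1 raise cyclic AMP through Gs, while EP3 lowers it through Gi. In fat cell precursors, prostaglandin F2α acting on FP is known to hold back differentiation, and prostacyclin is known to favour it.

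The sample labels give pre-adipocytes as the material, while the series title speaks of differentiated cells. Of 10 fat cell markers, 9 had mean levels between 10.14 and 12.59 on the log2 scale, and the leptin gene Lep had 4.83. The brightest marker of macrophages had a mean level of 5.94 over the 7 arrays, that of endothelial cells 5.11, that of mast cells 4.45 and that of platelets and megakaryocytes (Itgb3) 6.79 (levels, log2). Levels across the whole table ran from 2.23 to 13.25. Arrays of 1 group correlated across genes at 0.99902 to 0.99948 and arrays of different groups at 0.99684 to 0.9975. Genes are not independent replicates.

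The sequence just upstream of Ptgfr is shown because Ptgfr is the receptor gene with the large difference, and that of Ptger4, which had a small one, is shown for comparison. Both come from RefSeq (GRCm38.p6) and hold the 250 bases before the annotated start of the gene. Ptgfr lies on the minus strand with this stretch at chr3:151837529-151837778, and Ptger4 on the minus strand with its stretch at chr15:5244188-5244437. Capitals mark matches to any of the motifs named after the sequences.
Ptgfr: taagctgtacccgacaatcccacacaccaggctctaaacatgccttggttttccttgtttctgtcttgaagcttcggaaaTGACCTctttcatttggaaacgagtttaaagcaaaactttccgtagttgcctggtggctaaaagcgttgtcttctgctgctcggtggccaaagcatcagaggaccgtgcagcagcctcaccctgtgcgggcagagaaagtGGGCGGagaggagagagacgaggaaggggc
Ptger4: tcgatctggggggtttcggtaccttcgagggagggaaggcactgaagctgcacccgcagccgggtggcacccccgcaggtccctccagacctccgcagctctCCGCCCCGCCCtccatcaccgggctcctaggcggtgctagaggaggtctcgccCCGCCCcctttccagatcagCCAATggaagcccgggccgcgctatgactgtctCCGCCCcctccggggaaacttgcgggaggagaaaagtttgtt

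The motifs searched, on both strands, were TATAAA for the TATA box, CCAAT for the box of that name, GGGCGG for the GC box and AGGTCA for the nuclear receptor half-site. The others were TGACGTCA for the cyclic AMP response element, TGANTCA for the AP-1 site and CACGTG for the E-box. The Ptgfr stretch held 1 nuclear receptor half-site from position -170 relative to the gene start, which 14% of 32851 RefSeq stretches of this length also hold, and 1 GC box from position -30, which 32.7% hold. The Ptger4 stretch held 4 GC boxes, of which a pair overlap by 1 base, and 1 CCAAT box, which 33.8% of stretches hold. Neither stretch held a TATA box, a cyclic AMP response element, an AP-1 site or an E-box in these letters. The stretch of Ptgfr had 10 CpG dinucleotides and 52% G and C, and that of Ptger4 had 19 and 66.8%, against medians of 6 and 52.4% over all stretches. These matches describe the letters and show no binding.

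Ptgfr, which encodes the FP receptor, was the receptor transcript that was clearly higher with the inhibitor. Its level was 8.47, 8.56, 8.63 and 8.53 on the log2 scale in the 4 DMSO arrays. With the inhibitor it was 9.50, 9.52 and 9.36. The groups did not overlap, and the gap between them was wider than the spread within either. The means were 8.55 ± 0.069 (SD, n = 4) and 9.46 ± 0.086 (SD, n = 3), a log2 difference of 0.91 (SE 0.052, 95% interval 0.79 to 1.04) or 1.88-fold. By size of increase Ptgfr ranked 7 of 18820 genes, and by size of change in either direction it ranked 89. RNA from whole cultures cannot tell more cells with the transcript apart from more transcript per cell.

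Of the 7 receptor genes measured, 1 was called higher by limma's fit over all genes at an adjusted p under 0.05, and 0 were called lower, and the counts were the same at an unadjusted p under 0.05. Over all genes 8.0% were called, 3.62% higher and 4.37% lower, and nothing is read from the receptors' count, because this contrast was in view when they were chosen. Centring the arrays on their medians turned the split over all genes from 682 higher and 823 lower to 1296 and 1030. The groups failed to overlap for 1 of the 7 receptors and for 17.3% of all genes. The median log2 difference was -0.01 for the receptors and -0.00 for all genes.

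**Figure D1:**
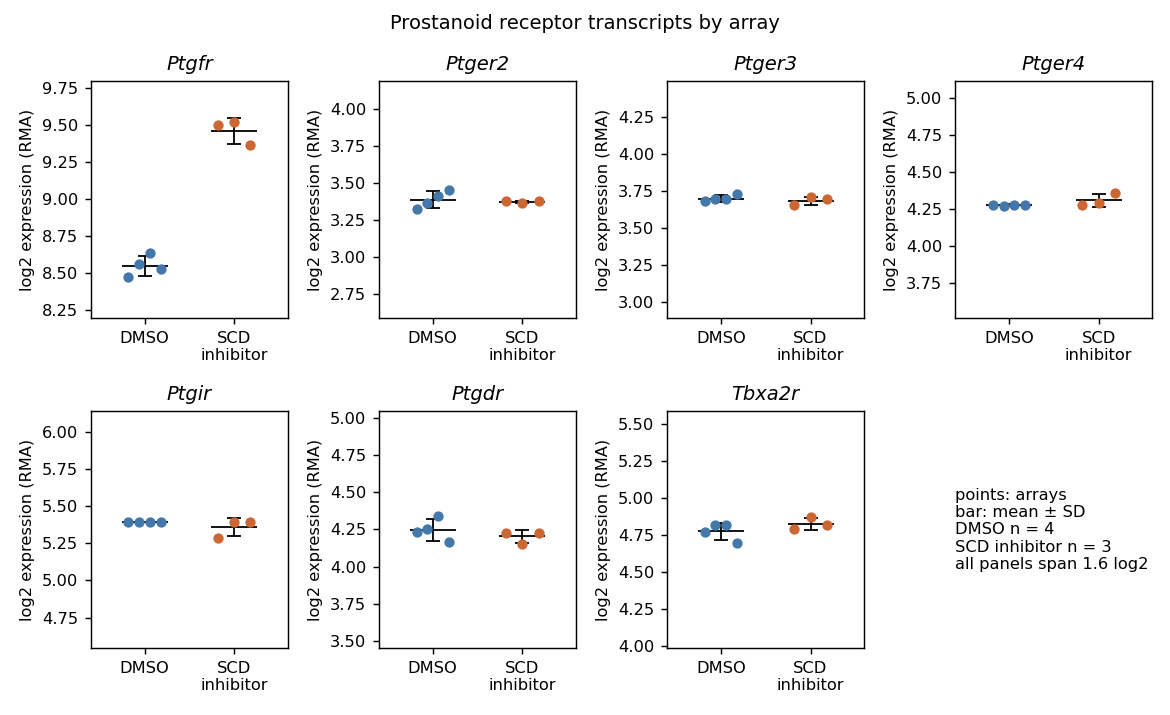
Log2 expression (vertical axis, RMA values) of the 7 measured receptor genes in DMSO (blue, n = 4) and with the SCD inhibitor (orange, n = 3), with points for arrays and bars for mean ± SD. All panels span the same height, and Ptgfr alone shows 2 groups that stand apart, at means of 8.55 and 9.46.

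Of the receptor genes that act through Gs, Ptger2, Ptger4 and Ptgdr were dim. Ptgir, at a mean of 5.38, lay above the array medians of 4.88 to 4.94. The groups overlapped for each of them. Ptger4, the gene of the EP4 receptor, read 4.28, 4.27, 4.28 and 4.28 in DMSO and 4.28, 4.29 and 4.36 with the inhibitor. The third inhibitor array was the highest, and the other arrays lay close together. The log2 difference was 0.03 (SE 0.023, 95% interval -0.02 to 0.09).

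Ptger2, the gene of the EP2 receptor, read 3.32, 3.36, 3.41 and 3.45 in DMSO and 3.38, 3.36 and 3.38 with the inhibitor. The inhibitor values lay inside the DMSO range, and the difference was -0.02 (SE 0.033, 95% interval -0.09 to 0.06). Ptgdr, the gene of the prostaglandin D2 receptor DP1, read 4.23, 4.25, 4.34 and 4.16 in DMSO and 4.23, 4.15 and 4.23 with the inhibitor. Its groups overlapped and differed by -0.04 (SE 0.045, 95% interval -0.15 to 0.06). Ptgdr and Ptger2 lie next to each other among the measured genes of chromosome 14 in RefSeq's order (GRCm38.p6).

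Ptgir, the gene of the prostacyclin receptor IP, read 5.40 on all 4 DMSO arrays (SD 0, n = 4) and on inhibitor arrays 2 and 3, and 5.29 on inhibitor array 1. A single array therefore carried its whole difference of -0.04 (SE 0.030, 95% interval -0.11 to 0.04). The stored value was identical on 6 of the 7 arrays. This was so for 991 of the 28996 rows of the table (3.42%, with 6 or more arrays identical), so the spread of such rows is understated. Stored values repeated to a lesser degree in other receptor rows. Over the 7 arrays Ptger4 had 4 distinct values, Ptger2, Ptger3 and Tbxa2r had 5 each, and Ptgdr had 6. Their intervals may also be too narrow.

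Ptger3, the gene of the Gi-coupled EP3 receptor, read 3.68, 3.69, 3.69 and 3.73 in DMSO and 3.65, 3.71 and 3.69 with the inhibitor. The groups overlapped, with a difference of -0.01 (SE 0.022, 95% interval -0.07 to 0.04). Tbxa2r, the gene of the thromboxane receptor TP, read 4.77, 4.81, 4.81 and 4.70 in DMSO and 4.79, 4.87 and 4.81 with the inhibitor. These groups overlapped too, with a difference of 0.05 (SE 0.036, 95% interval -0.03 to 0.14). TP, like FP, couples to Gq.

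**Figure D2:**
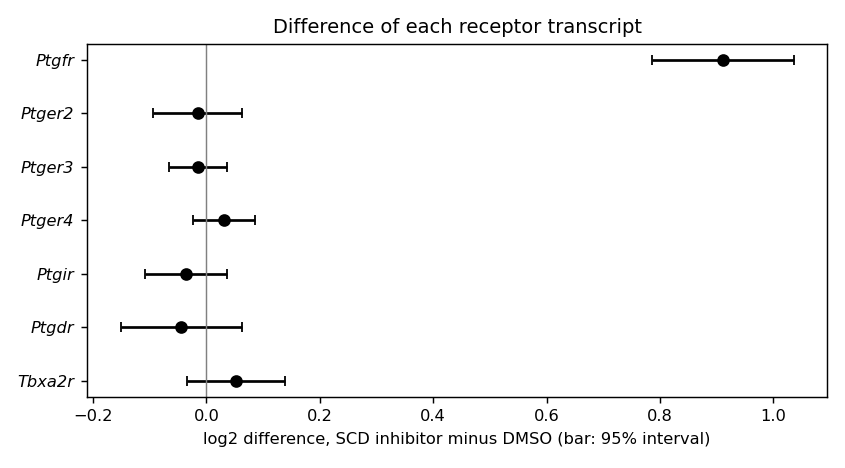
Log2 difference (horizontal axis, SCD inhibitor minus DMSO, n = 3 against 4) of each measured receptor gene, with its 95% interval from limma. Ptgfr lies at 0.91 and the other genes between -0.04 and 0.05, with intervals that include 0.

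The table holds no detection calls, so the receptors were set on the scale of 990 olfactory receptor genes, a family whose main site is the nose. These genes had a median level of 3.04, and 95% of them lay below 4.10. Ptger2 at 3.38 and Ptger3 at 3.69 lay under that mark. The levels of Ptgdr and Ptger4 exceeded those of 96.2% and 96.4% of olfactory receptor genes, that of Tbxa2r exceeded 98.5% and that of Ptgir 99.5%. Ptgfr at 8.94 lay above all of them. Rows differ in how brightly they report a transcript, so this is a guide to dim signal and ranks no receptor against another. For a row near this floor a small measured difference can hide a larger change.

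**Figure D3:**
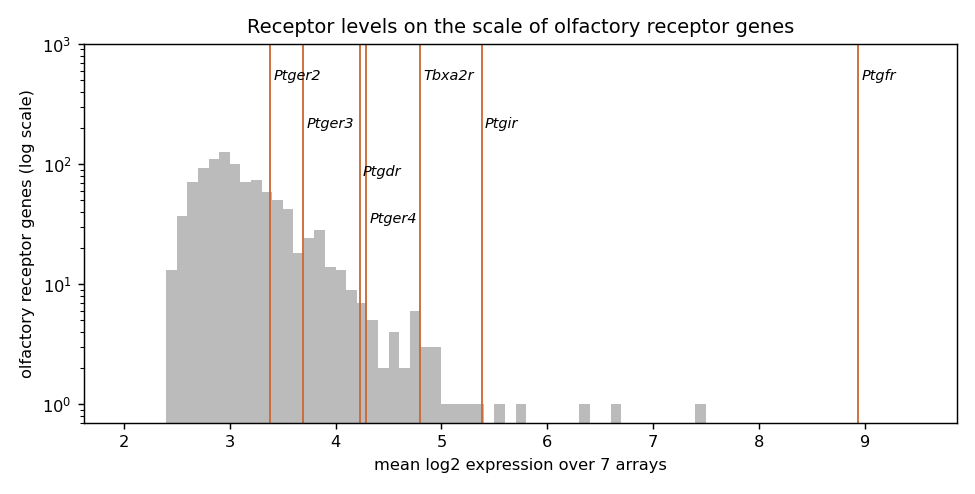
Number of olfactory receptor genes (vertical axis, log scale) by mean log2 expression over the 7 arrays (horizontal axis), with lines at the measured prostanoid receptors. The line of Ptgfr at 8.94 lies beyond all 990 olfactory receptor genes, and those of Ptger2 and Ptger3 lie within the bulk.

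A pair of related genes stood outside the family. Ptgfrn encodes a membrane protein that associates with FP and reduces its ligand binding, and it was named after its values were seen. It read 8.14, 7.97, 8.06 and 7.996 in DMSO and 8.49, 8.63 and 8.62 with the inhibitor. Its groups did not overlap, and the log2 difference was 0.54 (SE 0.054). Ptgdr2 encodes DP2, a prostaglandin D2 receptor of another receptor lineage. It shares both of its rows with Ccdc86, so neither row names it alone. The dim row went from 3.86 ± 0.037 in DMSO to 3.89 ± 0.0048 with the inhibitor (SD, n = 4 and 3). The bright row went from 8.71 ± 0.071 to 8.95 ± 0.078, and which of the genes it reports was not tested.

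The 5 named genes whose profile over the 7 arrays lay nearest to that of Ptgfr were Cdh13, Adamts1, Ptprn, Hgf and Sned1. Likeness was measured as the root mean square distance between profiles, each centred on its own mean. The distance was 0.064 for Cdh13, which encodes T-cadherin, a receptor of adiponectin. It was 0.077 for Adamts1, a secreted protease of the matrix, and 0.093 for Hgf, hepatocyte growth factor. Ptprn lay at 0.091 and Sned1 at 0.094. These genes had log2 differences from 0.80 (Hgf, SE 0.059) to 0.89 (Adamts1, SE 0.028), which the choice by likeness fixes.

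**Figure D4:**
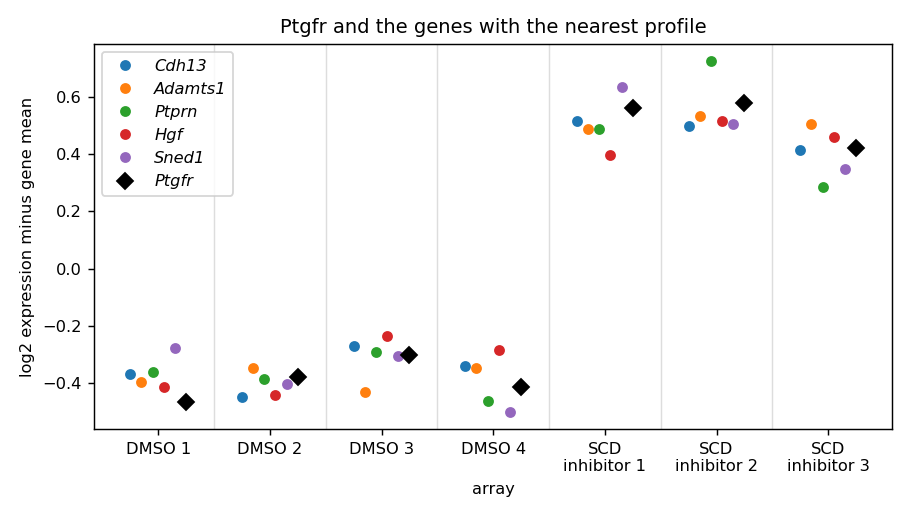
Log2 expression minus each gene's mean (vertical axis) on each of the 7 arrays (horizontal axis) for Ptgfr (black diamonds) and the 5 genes nearest to it. All 6 genes lie below their mean on the 4 DMSO arrays and above it on the 3 inhibitor arrays.

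The 6 measured protein-coding genes closest to Ptgfr on chromosome 3 in RefSeq's order (GRCm38.p6), 3 on each side, were compared in the same fit, a choice made after seeing the data. Of them 1 was higher, 1 was lower and 4 did not pass. Adgrl2, which encodes the adhesion receptor latrophilin 2, rose by 0.62 (SE 0.069, adjusted p = 0.00307 in limma). Fubp1 fell by 0.17 (adjusted p = 0.0454), and its adjusted p was 0.0848 to 0.145 without any 1 of DMSO 1 to 4 or SCD inhibitor 1 or 2. Its call also ended with all rows of the table tested (adjusted p = 0.0611). The immediate neighbours Ifi44l and Gipc2 had differences of -0.03 and -0.09.

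Of 9 measured markers of fat cell precursors, 4 rose and 0 fell, against 3.62% of all genes higher. These 4 had mean levels above 8 on the log2 scale, where 17.7% of genes were called in either direction. At an unadjusted p under 0.05 in limma the counts were 6 higher and 0 lower. Their mean level was 7.72 to 7.79 on the DMSO arrays and 8.03 to 8.07 on the inhibitor arrays, without overlap. Pdgfra, a receptor of platelet-derived growth factor, rose by 0.89 (SE 0.093, adjusted p = 0.00245 in limma). Pdgfrb, its close relative, rose by 0.51 (SE 0.068, adjusted p = 0.00659), and Prrx1, a mesenchymal transcription factor, rose by 0.38 (SE 0.055, adjusted p = 0.00909). Dlk1, an inhibitor of fat cell differentiation, rose by 0.32 (adjusted p = 0.0402), a call that ended without any 1 of DMSO 2, 3 or 4 or of the 3 inhibitor arrays (adjusted p = 0.0826 to 0.129) and with all rows of the table tested (0.0554). Cd34 was dim at 3.71 in DMSO and 3.74 with the inhibitor. The other markers did not pass. Among them Sfrp2 (log2 0.27, adjusted p = 0.0676 in limma) and Thy1 (log2 0.29, adjusted p = 0.137) were higher at an unadjusted p under 0.05. Gata2 (log2 0.01) and Zfp423 (log2 0.04) were not. The 4 that rose moved in the same direction as Ptgfr, and their part in its difference was not tested.

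Of the 10 fat cell markers 1 fell, Slc2a4 (the insulin-responsive glucose transporter, log2 -0.80, SE 0.070), against 4.37% of all genes lower. At an unadjusted p under 0.05 the counts in limma were 2 higher and 1 lower, and the list's median log2 difference was 0.00. The mean level of all 10 was 11.07 to 11.13 in DMSO and 10.98 to 11.04 with the inhibitor, and without Slc2a4 it was 11.15 to 11.18 and 11.11 to 11.19. None of the 9 macrophage, 8 endothelial, 5 platelet and 6 mast cell markers was called in limma, and at an unadjusted p under 0.05 the counts were 1 higher and 1 lower.

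The genes around the receptors were read from 10 lists with 124 measured genes, of which 4 were called higher and 14 lower, or 14.5%. The share was 8.0% over all genes (3.62% higher and 4.37% lower) and 17.7% over genes with a mean level above 8 on the log2 scale. Their median log2 difference was -0.01. Without SCD inhibitor 3 the count was 2 higher and 9 lower. The lists were chosen with earlier results of these data known, and their counts are a description.

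The called genes of the list of prostanoid synthesis were all lower. The cyclooxygenase gene Ptgs2 was not called (log2 -0.24, adjusted p = 0.236 in limma), and Ptgs1 was not among the measured genes. Of 17 measured, 5 fell in limma, 0 rose and 12 did not pass, with a median of -0.12, against 4.37% of all genes lower and 3.62% higher. At an unadjusted p under 0.05 the counts were 7 lower and 2 higher. Pla2g2e, a secreted phospholipase A2, read 8.08, 7.97, 8.15 and 8.01 in DMSO and 7.23, 7.19 and 7.37 with the inhibitor. The groups lay far apart, and it fell by 0.79 (SE 0.058, adjusted p = 5.39e-04 in limma). Cbr1, a carbonyl reductase that also acts on prostaglandins, fell by 0.39 (SE 0.042, adjusted p = 0.00285).

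Pla2g4a encodes the cytosolic phospholipase A2 that releases arachidonic acid. It fell by 0.56 (SE 0.11, adjusted p = 0.0244 in limma), but did not pass without DMSO 2, 3 or 4 or SCD inhibitor 2 or 3 (adjusted p = 0.0539 to 0.0815). Ptges2, a prostaglandin E synthase, fell by 0.33 (SE 0.064, adjusted p = 0.026). It lost its call without DMSO 3 or 4 or any 1 inhibitor array (adjusted p = 0.0648 to 0.101). The call also ended with the replicate number as a block (0.128). The fifth, Ptges, the inducible prostaglandin E synthase, was named after its values were seen. It fell by 0.24 (adjusted p = 0.0213), and had adjusted p = 0.0635 to 0.0728 without DMSO 3 or 4 or SCD inhibitor 2 or 3. With the replicate number as a block its adjusted p was 0.113.

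Of 8 genes listed for prostanoid transport and breakdown, 2 fell and 1 rose, against 8.0% of all genes in either direction. The other 5 did not pass. They were Hpgd (log2 -0.03, dim at 3.37 in DMSO), Ptgr1 (-0.03), Ptgr2 (0.04), Slco2a1 (-0.02) and Slco3a1 (0.10). Whether the called reductases Cbr3 and Akr1c14 act on prostanoids in these cells was not tested. Abcc4, which encodes the exporter MRP4 that carries prostaglandins and cyclic AMP out of cells, read 9.16, 9.39, 9.02 and 9.18 in DMSO and 7.34, 7.52 and 7.20 with the inhibitor. The groups were separated by more than the whole range of either, and Abcc4 was 3.56-fold lower (log2 -1.83, SE 0.10, adjusted p = 1.83e-04 in limma). Cbr3, a carbonyl reductase, fell by 0.58 (SE 0.060, adjusted p = 0.00235), and had adjusted p = 0.0561 with the replicate number as a block. Akr1c14, an aldo-keto reductase, rose by 0.66 (SE 0.13, adjusted p = 0.0304), a call lost without DMSO 1, 2 or 3 or SCD inhibitor 2 or 3 (adjusted p = 0.085 to 0.1).

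The parts that FP signals through did not move in 1 direction. Gnaq and Gna11 encode α subunits of the Gq class, to which Gna14 and Gna15 also belong, and are named for that role. Gnaq had a level of 9.70 ± 0.041 (SD, n = 4) without the inhibitor and 9.69 ± 0.015 (SD, n = 3) under it, with a 95% interval of the difference of -0.07 to 0.06. Gna11 was at 10.42 in both groups, with an interval of -0.04 to 0.04. The stored value of each gene was identical on some arrays of both groups (9.6816 for Gnaq and 10.418 for Gna11), so these intervals may be too narrow. Among the 18 G protein subunits 1 fell, Gna12, the α subunit of G12 (log2 -0.27, SE 0.036, adjusted p = 0.00604 in limma).

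Of 10 genes of phospholipase C, IP3 receptors and protein kinase C, 3 fell and 1 rose, against 4.37% of all genes lower and 3.62% higher. At an unadjusted p under 0.05 in limma the counts were 5 lower and 1 higher, and the list's median log2 difference was -0.08. Plcb4, a phospholipase C driven by Gq, read 8.94, 9.12, 9.05 and 9.04 in DMSO and 8.39, 8.49 and 8.41 with the inhibitor, without overlap. It fell by 0.60 (SE 0.047, adjusted p = 6.91e-04 in limma). Prkcd, protein kinase C δ, fell by 0.48 (SE 0.018), and Prkce, protein kinase C ε, fell by 0.43 (SE 0.080, adjusted p = 0.022), with adjusted p = 0.0624 to 0.0764 without DMSO 3 or any 1 inhibitor array. Itpr3, an IP3 receptor that releases calcium from stores, rose by 0.41 (SE 0.037, adjusted p = 0.00132).

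None of 9 genes of calcineurin and NFAT was called in limma, and at an unadjusted p under 0.05 the count was 0 higher and 1 lower. Those with the smallest p were Ppp3ca, a catalytic subunit of calcineurin (log2 -0.16, adjusted p = 0.181), and Nfatc1 (log2 -0.05, adjusted p = 0.277).

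On the cyclic AMP side, 1 of 9 adenylyl cyclases rose and 2 of 16 genes of protein kinase A, EPAC and phosphodiesterases fell, which is 11.1% and 12.5% of these short lists against 8.0% of all genes. Adcy6, an adenylyl cyclase, rose by 0.23 (SE 0.030, adjusted p = 0.00633 in limma). Pde4d, a phosphodiesterase that breaks down cyclic AMP, fell by 0.40 (SE 0.026, adjusted p = 3.39e-04), and its difference was -0.21 with the mean of all rows of the gene. Prkar2b, a regulatory subunit of protein kinase A, fell by 0.17 (adjusted p = 0.0458), and without any 1 of the arrays other than DMSO 3 its adjusted p was 0.0846 to 0.148. Its call also ended with the arrays centred (0.0508), with array weights (0.0604) and with all rows tested (0.0616).

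Of 9 genes of receptor desensitisation 1 fell: Rgs2, which shortens Gq signals, by 0.26 (SE 0.036, adjusted p = 0.00691 in limma). The adjusted p of Rgs2 was 0.0595 with the replicate number as a block. Of 12 early genes that respond to CREB none was called in limma, while 2 were higher and 1 lower at an unadjusted p under 0.05. Junb had a log2 difference of 0.24 (adjusted p = 0.0536) and passed without DMSO 4 (adjusted p = 0.0224), with the arrays centred (0.0304) and with the dimmest 25% or 50% of genes dropped (0.0361 and 0.0212). Fos had a difference of 0.20 (adjusted p = 0.11).

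Among 16 other receptors of lipid mediators 1 rose and 15 did not pass, which is 6.25% against 8.0% of all genes. It was Lpar1, a receptor of lysophosphatidic acid, which rose by 0.44 (SE 0.067, adjusted p = 0.00985 in limma) and had adjusted p = 0.0505 without SCD inhibitor 3. The list's median was 0.00.

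**Figure D5:**
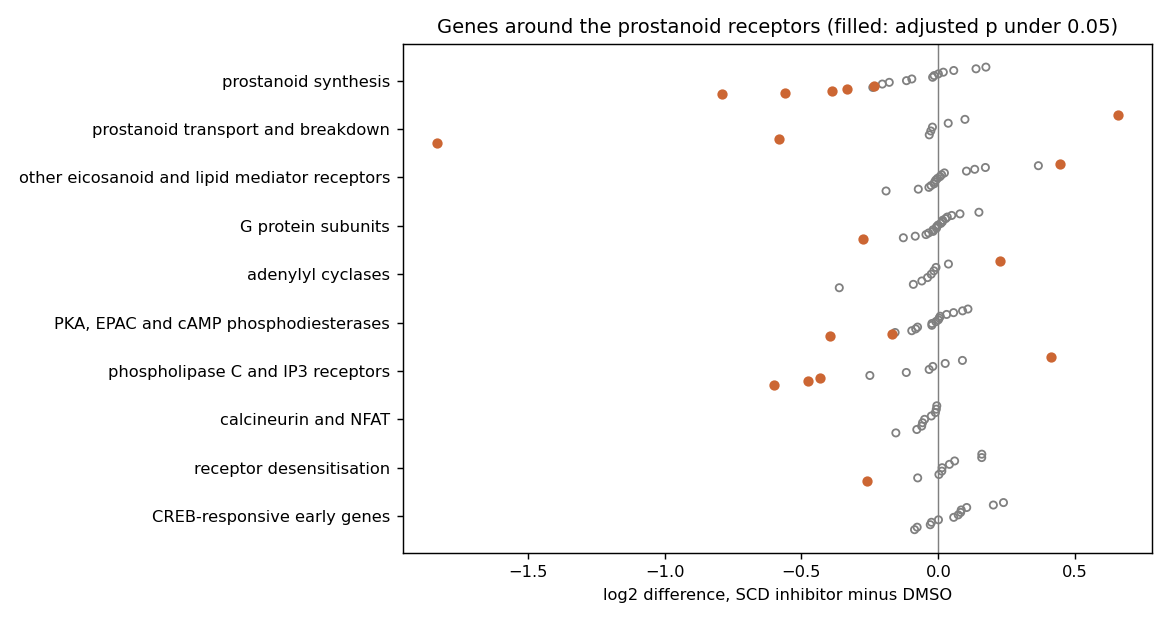
Log2 difference (horizontal axis, SCD inhibitor minus DMSO) of the genes of each of the 10 lists (rows), with 1 point per gene and filled points for adjusted p under 0.05 in limma. Abcc4 at -1.83 lies farthest to the left, and filled points lie on both sides of 0 in the lists of transport and breakdown and of phospholipase C.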

How the data were processed

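The authors deposited log2 expression values from RMA, as named in the submitters' processing notes. The log base was read from the values. The RMA version, annotation release and filters were not given in the sources used here. RMA brings arrays to a common distribution, which can hide shifts shared by all genes and compress changes of dim genes. Rows with 1 gene symbol in the array annotation were used, 21218 of 28996, with the row of highest mean for each gene, which left 18820 genes and no filter on dim ones. A linear model with 1 term for the inhibitor was fitted to all 7 arrays with limma 3.58.1 in R 4.3.3 (5 residual and 1.68 prior degrees of freedom), and p-values were adjusted by Benjamini and Hochberg over all genes. The script was tested on simulated data. The number of arrays limits the precision, with a median SE of 0.039 (log2).

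The receptors, the lists and the tests were chosen with earlier results of these data known. Named were all receptors, up to 4 called genes of each list by size of change or else the 2 of smallest p, and the 5 genes nearest in profile to a called receptor. Alternatives were a replicate block, further quantile normalization, centring on array medians, dropping the dimmest 25% or 50% of genes, trended robust moderation, array weights, the mean of a gene's rows, testing all rows, and leaving out each array.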

Additional observations from a re-analysis of the deposited data

Results flagged for a closer look

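Among 44 named genes, 4 had 1 DMSO array far from the other 3, where chance gives about 1 in 20 groups. Ptger4 read 4.2686 on DMSO 2 and 4.2783 on the others, a gap of 1 step in a row of nearly constant stored values. Cbr1 read 9.4785 on DMSO 1 against 9.3164 to 9.334. Akr1c14 read 5.4131 on DMSO 4 against 5.0469 to 5.0938. Junb read 6.0586 on DMSO 4 against 6.2354 to 6.2715.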

How the results depend on the processing

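Over the 16 alternatives the log2 difference of Ptgfr ranged from 0.88 to 0.96, and no difference of the other 6 measured receptors exceeded 0.072 in size. Dropping the dimmest 25% of genes removed Ptger2 and Ptger3, and dropping 50% removed all receptors but Ptgfr. With the replicate number as a block (replicate block) Ptgfr had a difference of 0.90, and 896 genes were called against 1505. This block leaves fewer residual degrees of freedom than the main fit. DMSO 4, whose number no inhibitor array shares, then adds nothing to the difference. A call lost with the block can therefore come from lower power, and this was not tested apart from pairing. Of the named genes, Cbr3, Ptges2, Ptges, Lpar1, Prkar2b, Rgs2, Dlk1, Fubp1, Ptgfrn and Ptprn lost the call with this block. Deviations of same-numbered arrays from their group means correlated across genes at 0.174, 0.138 and 0.0796. Those of differently numbered arrays correlated at -0.171 to -0.0076, apart from SCD inhibitor 2 with DMSO 4 (0.16). The labels do not say that the numbers pair the samples, and the main fit left them unpaired. Whether same-numbered arrays share a batch or culture was not tested. Centring the arrays gave 2326 genes. Leaving out each array gave 949 to 1294 genes and 11 to 18 called pathway genes, against 18. Of the 17 called pathway genes named by the rule, 9 were called under every alternative and 8 lost the call in at least 1.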
